A study of Homo sapiens with 49 samples.

Results

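Regions of T-47D cells at which MAX and c-MYC peaks coincided after estradiol were described. They were chosen by measured peak positions: each is a peak of the MAX list from estradiol-treated T-47D cells that overlapped, by at least 1 bp, a peak of the c-MYC list from cells treated the same way, on chromosomes 1 to 22 and X. This rule gave 495 shared regions of 1490 MAX peaks (33.2%). The other 995 MAX peaks are called MAX-only regions below, and the 1311 c-MYC peaks that overlapped no MAX peak are called MYC-only regions. The 1811 c-MYC peaks included 500 (27.6%) that overlapped a shared region. T-47D is a breast ductal carcinoma line and Ishikawa an endometrial carcinoma line, and both were studied by ChIP-seq for their response to estrogen in 49 samples. Of these, 45 came with a peak list, 24 of them from T-47D, and the lists held 528044 peaks in all. Cells grown in hormone-depleted medium received DMSO as vehicle or estradiol (E2) at 10 nM. Proteins were profiled after 1 h and histone marks after 8 h. SIN3A was instead profiled in cells in stripped media or full media. Each group was 1 library, except RNA polymerase II (Pol2) in T-47D with 2 libraries per treatment, so a difference between lists has no replicate check unless Pol2 is named.

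MYC and MAX are basic helix-loop-helix leucine zipper proteins. MYC needs MAX as its partner on DNA. MAX has other partners too, among them MXD proteins, MNT and MGA, so it can occupy sites without MYC. These dimers prefer the palindromic E-box CACGTG and close variants such as CACGCG, often in CpG-rich promoters of genes for ribosome assembly, translation and metabolism. MXD dimers recruit the SIN3 corepressor, whereas MYC dimers are known mainly as activators, and MYC is itself an early estrogen target in breast cancer cells.

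Several lists stood apart, and this touches the shared regions. The lists of T-47D LSD1 DMSO (37 peaks), T-47D H3K27me3 E2 (99), T-47D SIN3A stripped media (70) and Ishikawa c-MYC DMSO (50) were short. Of the shared regions, 13 (2.63%) overlapped at least 1 of these 4 lists, against 9 (0.905%) of MAX-only regions. These 13 regions held 7 of the 10 highest c-MYC fold enrichments and 5 of the 12 strongest regions named below. Yet 1 of them had an H3K4me3 peak and 0 had CACGTG at the summit. Results for TAF1, H3K4me3 and CACGTG over all shared regions are therefore also given for the other 482. The T-47D H3K27me3 DMSO list, a mark known from Polycomb-silenced genes, had 85.7% of its peaks at H3K4me3 peaks, against its label. Start sites of 7 of 9 luminal breast markers (GATA3, ESR1, FOXA1, KRT8, KRT19, XBP1 and SPDEF, but not KRT18 or TFF1) carried H3K4me3 in T-47D, as did 2 of 7 endometrial, 0 of 4 stromal and 1 of 4 immune markers. In Ishikawa the counts were 6 of 9, 5 of 7, 1 of 4 and 0 of 4.

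Sequences of 101 bp around the MAX summit, from the plus strand of the GRCh37 genome, show what lies under the strongest peaks. Regions were ranked by the lower of their MAX and c-MYC fold enrichments (ChIP signal at the summit over local background). The 4 strongest at start sites with CACGTG, shown in capitals, lay at chr3:193852869-193852969 (promoter of ENSG00000289385, 1018 bp from the start site of HES1, a transcriptional repressor that acts in the Notch pathway), chr2:70314016-70314116 (PCBP1-AS1, 543 bp from the start site of the RNA-binding protein gene PCBP1), chr4:2965058-2965158 (NOP14, a factor of small ribosomal subunit assembly) and chr11:123612271-123612371 (ZNF202, a zinc finger protein gene).
ENSG00000289385: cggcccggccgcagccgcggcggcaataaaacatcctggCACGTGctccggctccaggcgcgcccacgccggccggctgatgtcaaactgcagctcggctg
PCBP1-AS1: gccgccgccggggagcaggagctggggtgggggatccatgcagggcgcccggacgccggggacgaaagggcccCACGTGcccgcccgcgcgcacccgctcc
NOP14: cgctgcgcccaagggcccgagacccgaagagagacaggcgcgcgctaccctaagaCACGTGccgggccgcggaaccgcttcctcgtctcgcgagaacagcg
ZNF202: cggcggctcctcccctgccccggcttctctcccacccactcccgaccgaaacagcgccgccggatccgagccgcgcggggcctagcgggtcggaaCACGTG

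The E-box lay 8, 26, 8 and 48 bp from the MAX summit in these windows, whose GC content ran from 70.3% to 81.2%. The strongest start-site regions without CACGTG were a pair in MIR663AHG, at chr20:26188833-26188933 and chr20:26189981-26190081, and the second of them held the variant CACGCG (capitals). Away from start sites the strongest were an intronic window of LINC00486 at chr2:33141445-33141545, of which 97.0% was G or C in long runs of G, a window at chrX:108297700-108297800 whose nearest start site was that of RNU6-309P, 227756 bp away, and a window at chr15:96900448-96900548 in an intron of ENSG00000259275, 24106 bp from NR2F2.
MIR663AHG, without a motif: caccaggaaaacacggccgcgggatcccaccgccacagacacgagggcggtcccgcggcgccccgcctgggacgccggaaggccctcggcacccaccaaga
MIR663AHG, with CACGCG: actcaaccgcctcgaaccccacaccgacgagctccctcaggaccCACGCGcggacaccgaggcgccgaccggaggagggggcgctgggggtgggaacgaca
LINC00486: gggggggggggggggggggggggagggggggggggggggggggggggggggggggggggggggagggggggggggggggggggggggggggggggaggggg
near RNU6-309P: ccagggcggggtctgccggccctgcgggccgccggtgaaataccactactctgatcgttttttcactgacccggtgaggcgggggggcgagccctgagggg
ENSG00000259275: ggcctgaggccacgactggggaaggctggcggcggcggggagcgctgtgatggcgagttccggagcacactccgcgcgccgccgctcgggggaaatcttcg

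The first 4 of these last 5 windows belonged to regions in 1 or more of the short lists, the G-run window to 3 of them.

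The shared regions were of ordinary strength within both lists. MAX fold enrichment at them had a median of 11.0 (3.69 to 27.7), against 10.5 (6.15 to 33.0) at MAX-only regions. c-MYC fold enrichment had a median of 8.64 (4.84 to 26.0), against 8.72 at MYC-only regions. These values come from the lists that chose the regions and are given as a description. MAX peaks were somewhat wider where c-MYC was present, with a median of 352 bp against 314 bp, and 6 of the 495 overlapped more than 1 c-MYC peak. A wider peak more easily meets the rule of 1 bp overlap, so the difference in width is in part set by the rule. The MAX and c-MYC peaks overlapped by a median of 274 bp and their summits (that of the strongest c-MYC peak where several overlapped) lay a median of 93 bp apart, within 100 bp at 265 regions (53.5%) and within 50 bp at 163 (32.9%).

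**Figure D1:**
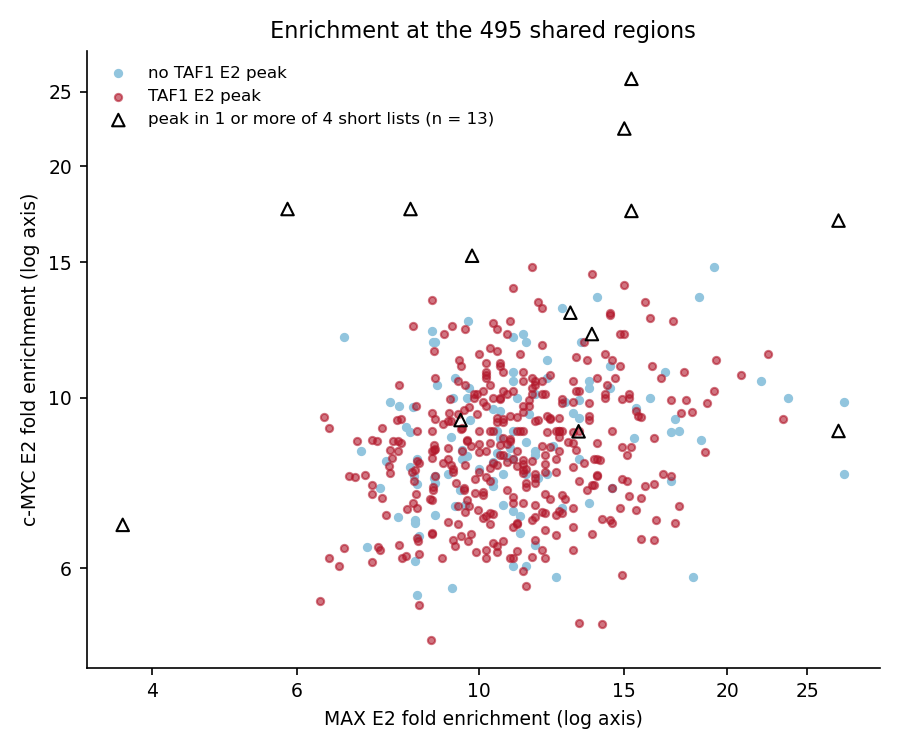
Fold enrichment of MAX (horizontal) and c-MYC (vertical) in estradiol-treated T-47D cells, both on log axes, 1 point per shared region. Filled points show regions with and without a TAF1 E2 peak, and open triangles the 13 regions that overlap a short list, which hold every c-MYC value above 14.8, the highest among the other 482.

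The regions named here just inside and just outside the rule had MAX fold enrichments in one range. The shortest overlaps were 3 bp at COMMD5, 10 bp at the proteasome assembly chaperone gene PSMG1 and 16 bp at ENSG00000263105, with MAX fold enrichments of 8.79, 13.8 and 8.80. Among the shortest gaps that kept a MAX peak out were 8 bp at WDSUB1 and 8 bp at the pattern receptor gene NOD1, with MAX fold enrichments of 10.2 and 10.4. In all, 57 MAX-only regions (5.73%) lay within 1000 bp of a c-MYC peak.

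Most shared regions were promoters, but no more often than MAX peaks without c-MYC. The MAX summit lay within 250 bp of an annotated transcription start site in 389 of 495 (78.6%, exact 95% interval 74.7 to 82.1) and in 768 of 995 MAX-only regions (77.2%), a difference of 1.40 points (Newcombe 95% interval -3.17 to 5.74), against 77.7% of all MAX peaks. Intervals on shares cover counting error over regions only. The other shared regions fell in exons (21), introns (54) and between genes (31). MYC-only regions, placed by the c-MYC summit and not the MAX summit, were at start sites in 56.7% (53.9 to 59.4). They were more often in introns (21.8% against 10.9% of shared regions). Of the promoter regions with c-MYC, 358 of 389 had a protein-coding start site and 27% had start sites on both strands, against 23.2% for MAX alone (difference 3.82 points, -1.39 to 9.24).

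Within promoters, the shared regions sat slightly further downstream. The MAX summit was downstream of the start site in 42.7% of shared promoters and 34.9% of MAX-only promoters, a difference of 7.78 points (1.86 to 13.7). Its median position was -12 bp in the former and -32.5 bp in the latter. At the 389 shared promoters the c-MYC summit had a median position of 12 bp, downstream of the MAX summit in 218 and upstream in 170. With start sites on a single strand (284 promoters) the c-MYC summit was downstream of MAX in 163 and upstream in 121.

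TAF1, the largest TFIID subunit and part of the machinery that assembles at core promoters, was found at more shared regions than MAX-only regions. After E2, 372 of 495 shared regions (75.2%, 71.1 to 78.9) had a TAF1 peak, against 505 of 995 MAX-only regions (50.8%, 47.6 to 53.9), 46% of MYC-only regions and 58.9% of all MAX peaks. The difference between shared and MAX-only regions was 24.4 points (19.3 to 29.2). Under DMSO the shares were 61.8% and 41.0%, a difference of 20.8 points (15.5 to 26.0). Where TAF1 was present after E2, its fold enrichment had a median of 7.72 at shared and 7.78 at MAX-only regions.

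The TAF1 difference was present in each setting given in this paragraph. It was 25 points (19.7 to 29.8) among regions at start sites, where 83.3% of shared regions carried TAF1, and 20.2 points (9.22 to 31.0) farther than 250 bp away, where 45.3% did. Split by MAX fold enrichment into terciles of all MAX peaks, it was 19.3 points (10.2 to 27.7), 27.2 points (18.3 to 35.0) and 27 points (18.4 to 34.9) from the lowest to the highest. Without regions in the 4 short lists it was 25.4 points. With overlaps counted in windows of 100 bp either side of the MAX summit, whatever the peak width, it was 23.1 points (17.9 to 28.0). Limited to the 267 shared regions with any c-MYC summit within 100 bp of the MAX summit, the difference from the 995 MAX-only regions was 21.9 points (15.5 to 27.8). With a fold enrichment of at least 10 in both lists, it was 22.6 points (12.2 to 31.4), over 97 shared and 619 MAX-only regions. Between the treatments, 296 shared regions had TAF1 in both lists, 76 after E2 alone, 10 under DMSO alone and 113 in neither. The E2 list was the longer one (5643 against 4587 peaks), and at MAX-only regions the same counts were 377, 128, 31 and 459. At the 296 shared regions with both peaks the E2 fold enrichment was the higher in 254, with a median ratio of E2 to DMSO of 1.26, and at the 377 MAX-only regions it was higher in 318, with a median ratio of 1.24.

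TAF1 was no more frequent where c-MYC was strongest. Within the shared regions, 69.3% of the highest tercile of c-MYC fold enrichment and 79.3% of the lowest had TAF1 after E2, a difference of -9.99 points (-19.2 to -0.545). The 13 regions in short lists were not left out here. They held 7 of the 10 highest c-MYC fold enrichments, and 3 of them had TAF1 after E2. The difference was not computed without them. It was at 78.9% of the shared regions with a c-MYC peak under DMSO and 73.7% of the others, a difference of 5.22 points (-3.38 to 12.9). Summits within 100 bp of each other went with TAF1 in 72.5%, and summits farther apart in 78.3% (difference -5.81 points, -13.3 to 1.85).

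**Figure D2:**
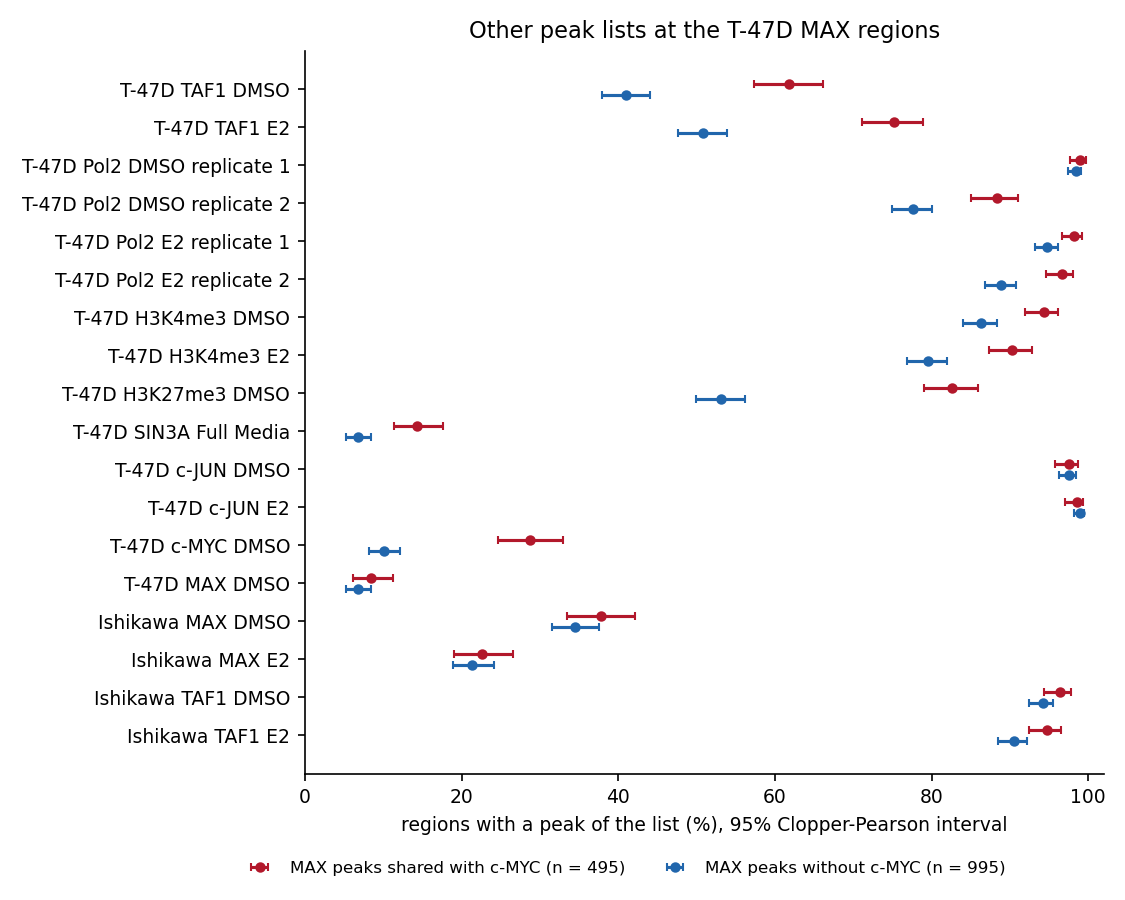
Share of shared regions (n = 495) and MAX-only regions (n = 995) with a peak of each list, in percent with exact 95% intervals. Among the lists drawn, TAF1 in T-47D (75.2% against 50.8% after E2), H3K27me3 DMSO and c-MYC DMSO separate the classes most, while the intervals of T-47D c-JUN and Ishikawa MAX overlap.

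Pol2 was near saturation at the shared regions. It had a peak at 99.0% and 88.3% of them in the 2 DMSO libraries and at 98.2% and 96.6% in the 2 E2 libraries. Libraries thus differed within DMSO by more than the treatments did, and the groups overlapped. The mean share was 93.6% ± 7.57 under DMSO and 97.4% ± 1.14 after E2 (SD, n = 2 each), a difference of 3.74 points (exact two-sided permutation test, p = 1.00, the smallest p that 6 assignments allow being 0.33). Without DMSO replicate 2 the difference turned to -1.62 points. Median Pol2 fold enrichments at the shared regions were 62.0 and 14.3 under DMSO and 27.1 and 18.7 after E2. Both E2 libraries had a peak at 96.4% of shared regions and 88.8% of MAX-only regions, against 91.3% of all MAX peaks, a difference of 7.52 points (4.79 to 10.0). The interval spanned 0 in the lowest tercile of MAX fold enrichment (4.56 points, -0.342 to 8.56) and with a fold enrichment of at least 10 in both lists (6.58 points, -0.501 to 11.0).

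H3K4me3, the mark of active promoters, was also more frequent at the shared regions. Under DMSO it covered 94.3% of them (91.9 to 96.2) and 86.3% of MAX-only regions, a difference of 8.01 points (4.89 to 10.9), against 89.0% of all MAX peaks. Without the short lists the share was 96.7%. After E2 it covered 90.3% and 79.5%. Over the 267 shared regions with a c-MYC summit within 100 bp, the DMSO difference was 5.05 points (0.602 to 8.67), and with a fold enrichment of at least 10 in both lists it was 5.10 points with an interval that spanned 0 (-2.75 to 10.4). The interval also spanned 0 in the highest tercile of MAX fold enrichment (5.55 points, -0.450 to 10.9). H3K4me1, found at enhancers, had a peak at 1 shared and 4 MAX-only regions under DMSO and at 0 and 2 after E2.

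The remaining T-47D lists differed in how they marked the shared regions. The H3K27me3 DMSO list, described above as lying at H3K4me3, covered 82.6% of shared and 53.1% of MAX-only regions, a difference of 29.6 points (24.8 to 33.9). SIN3A in full media was at 71 shared regions (14.3%, 11.4 to 17.7) and 67 MAX-only regions (6.73%, 5.26 to 8.47), against 9.26% of all MAX peaks. The difference was 7.61 points (4.31 to 11.3), with an interval that spanned 0 in the middle tercile of MAX fold enrichment (2.25 points, -2.23 to 8.07). c-JUN, an AP-1 subunit, was at 97.6% of shared and 97.5% of MAX-only regions under DMSO and at 98.6% and 99.0% after E2. The c-JUN E2 list also lay at the start sites of 91.5% of the 12058 protein-coding genes with H3K4me3, against 44.2% for TAF1 E2 and 10.9% for MAX E2, and the AP-1 motif TGACTCA was in 0 of the 495 shared summit windows, 7 of the 995 MAX-only windows (difference -0.704 points, -1.45 to 0.148) and 1.21% of the windows at protein-coding start sites.

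**Figure D3:**
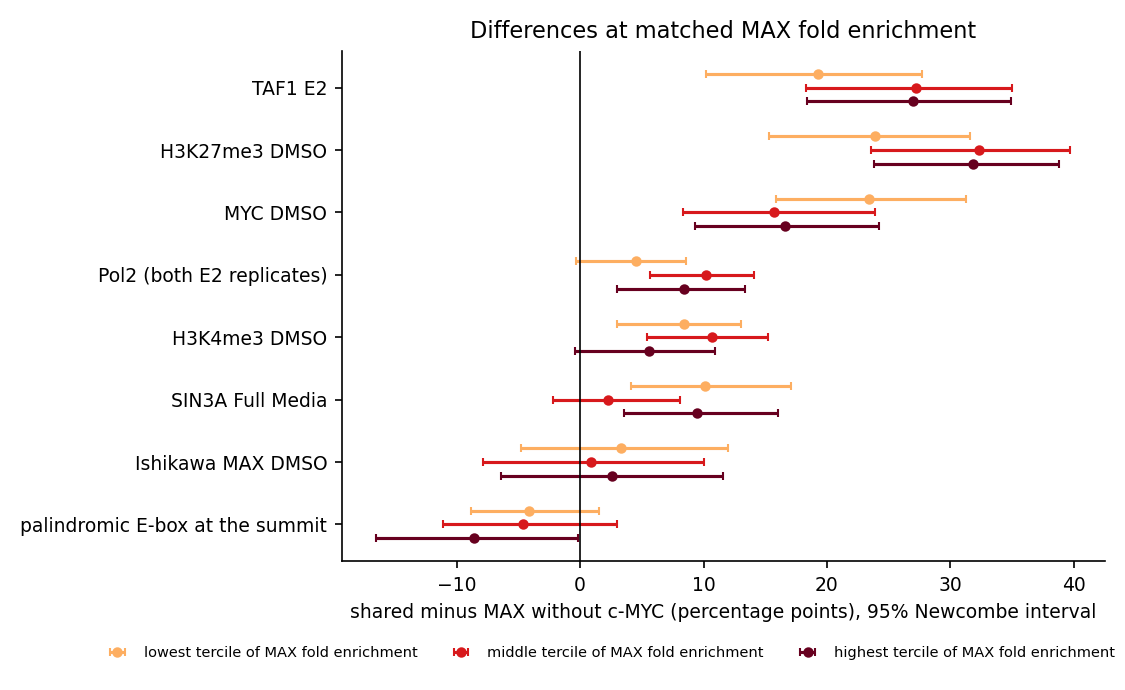
Difference in the share of regions with each feature, shared minus MAX-only, in percentage points with Newcombe 95% intervals, within terciles of MAX fold enrichment. TAF1 lies at 19.3, 27.2 and 27 points, whereas the intervals for Ishikawa MAX span 0 in each tercile, and those for the palindromic E-box span 0 in all but the highest.

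The palindromic E-box was enriched under the MAX summits of shared regions, and less frequent there than at MAX-only regions. CACGTG, searched on both strands within 50 bp of the summit, was present in 80 of 495 shared regions (16.2%, 13.0 to 19.7) and 209 of 995 MAX-only regions (21.0%, 18.5 to 23.7), a difference of -4.84 points (-8.82 to -0.589), against 19.4% of all MAX peaks. Windows of the same length shifted by 500 bp from the shared summits held it in 1.92% (1.16 to 2.98), and windows at 56002 protein-coding start sites in 2.94%. MYC-only summits held it in 2.06% (1.36 to 2.98), a share close to that of their own flanks (2.02%). The variant CACGCG was in 15.8% of shared, 19.2% of MAX-only and 8.62% of MYC-only summit windows, and in 5.48% at start sites. CANNTG, of which CACGTG is a case, was in 34.7%, 38.5%, 27.7% and 30.1% of the same windows. Either CACGTG or CACGCG was present in 29.9% of shared and 37.2% of MAX-only regions, a difference of -7.29 points (-12.2 to -2.18).

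The motif followed the MAX summit more closely than the c-MYC summit. Of the shared regions, 7.68% (5.49 to 10.4) had CACGTG within 50 bp of the c-MYC summit, below the 16.2% at the MAX summit of the same regions. Within 300 bp of the MAX summit, 181 shared regions (36.6%) held the motif, at a median distance of 54 bp. The number per 100 regions was 5.05 and 5.25 in the 25 bp bins on either side of the summit and 0.202 to 0.808 beyond 225 bp on the downstream side of the plus strand. The motif was in 16.6% of regions with summits within 100 bp of each other and in 15.7% of the others, a difference of 0.952 points (-5.65 to 7.40).

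**Figure D4:**
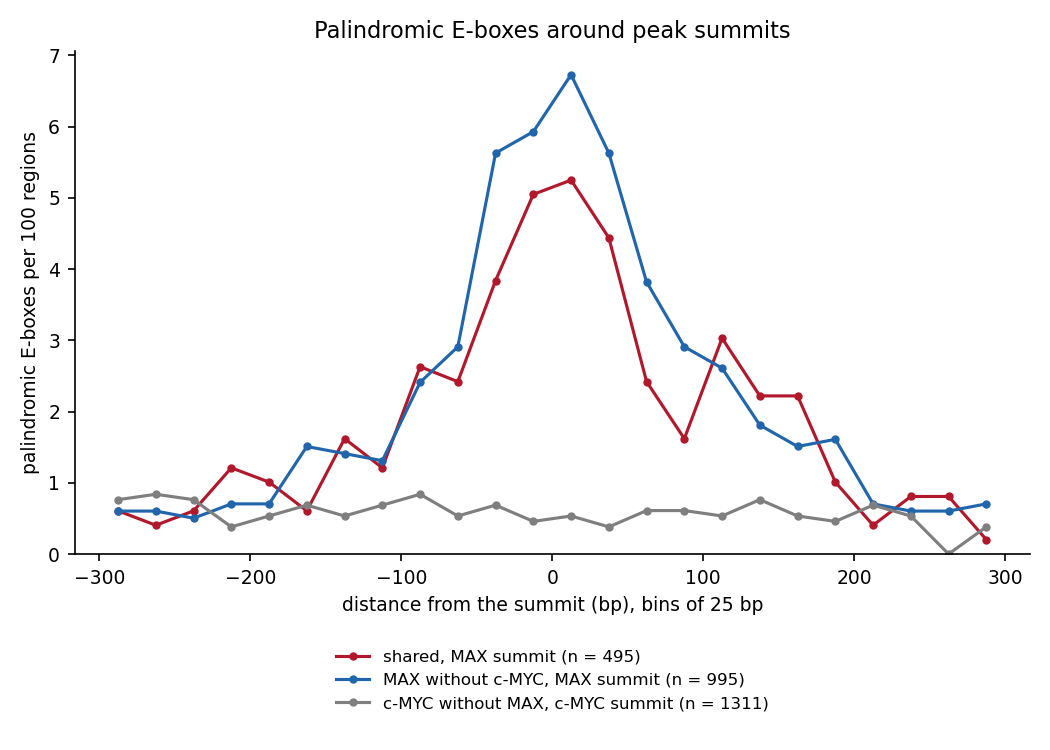
Palindromic E-boxes per 100 regions in bins of 25 bp by distance from the summit on the plus strand, at shared regions, MAX-only regions (both around the MAX summit) and MYC-only regions (around the c-MYC summit). Both MAX classes peak at the summit (5.25 and 6.73 per 100 regions in the bin from 0 to 25 bp), and MYC-only regions stay at 0.839 or below in every bin.

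E-box frequency rose with MAX fold enrichment in both classes. Among shared regions CACGTG was present in 6.29%, 14.7% and 25.8% of the lowest, middle and highest terciles, and among MAX-only regions in 10.4%, 19.3% and 34.4%. The difference was below 0 in each tercile, with an interval that excluded 0 in the highest (-8.60 points, -16.5 to -0.176). The lower share at shared regions rested on a small margin: it was -4.15 points (-8.95 to 1.36) with a c-MYC summit within 100 bp, -3.43 points (-11.6 to 6.52) with a fold enrichment of at least 10 in both lists, and -4.40 points (-8.44 to -0.0688) without the short lists. Shared regions with CACGTG had TAF1 after E2 less often than those without it (63.8% of 80 against 77.3% of 415, difference -13.6 points, -25.2 to -3.02).

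Ishikawa cells had MAX at many of the same places, with or without c-MYC in T-47D. The Ishikawa MAX DMSO list covered 187 shared regions (37.8%, 33.5 to 42.2) and 343 MAX-only regions (34.5%, 31.5 to 37.5), a difference of 3.31 points (-1.83 to 8.53), against 35.6% of all MAX peaks. The E2 list covered 112 (22.6%) and 213 (21.4%). MYC-only regions had Ishikawa MAX in 11.6% under DMSO and 3.20% after E2. Median Ishikawa MAX fold enrichment at the shared regions was 6.24 under DMSO and 7.16 after E2. The Ishikawa c-MYC lists could hardly be compared, with a DMSO list of 50 peaks that met 6 shared regions and an E2 list that met 0 of 495, which allows up to 0.742%. Ishikawa TAF1 was at 96.4% of shared regions under DMSO and 94.7% after E2, against 94.9% and 91.9% of all MAX peaks. Ishikawa H3K4me3 was at 96.0% and 96.2%, against 95.2% of all MAX peaks under either treatment.

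CACGTG was more frequent where MAX was found in both lines. Of the shared regions with Ishikawa MAX under DMSO, 24.6% held CACGTG, against 11.0% of those without, a difference of 13.6 points (6.67 to 20.9). At MAX-only regions the shares were 37% and 12.6%, a difference of 24.4 points (18.8 to 30.2). Among regions with Ishikawa MAX, shared regions had the motif less often than MAX-only regions by 12.4 points (difference -12.4, -20.1 to -4.15), and among regions without it the difference was -1.54 points (-5.64 to 3.08). Ishikawa MAX under DMSO also rose with T-47D MAX fold enrichment, from 28.9% in the lowest tercile to 48.9% in the highest at shared regions. At MAX-only regions it rose from 25.6% to 46.3%. The link between the motif and Ishikawa MAX was not tested within terciles.

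Under DMSO, fewer shared regions were in the T-47D lists of either protein, and these lists were shorter (592 c-MYC and 197 MAX peaks against 1811 and 1490). c-MYC DMSO peaks were at 142 shared regions (28.7%, 24.7 to 32.9), 100 MAX-only regions (10.1%, 8.25 to 12.1) and 135 MYC-only regions (10.3%). The shared regions exceeded MAX-only regions by 18.6 points (14.3 to 23.1). MAX DMSO peaks were at 42 shared regions (8.48%, 6.18 to 11.3) and 67 MAX-only regions (6.73%), a difference of 1.75 points (-1.01 to 4.87). At the 142 regions the ratio of E2 to DMSO fold enrichment of c-MYC had a median of 0.972, above 1 in 65, and at the 42 regions that of MAX had a median of 2.12, above 1 in 40. Since the E2 lists chose the regions, these ratios are descriptions.

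Both proteins had a DMSO peak as well at 16 shared regions. These included the promoter of TFRC, the transferrin receptor (fold enrichments under DMSO and after E2 of 5.75 and 18.8 for MAX and of 6.39 and 8.49 for c-MYC), the intron of PPRC1, a coactivator of nuclear genes for mitochondria, 504 bp from its start site (8.94 and 15.9 for MAX, 7.87 and 13.3 for c-MYC), and the promoter of ERCC6, a transcription-coupled repair gene (6.13 and 11.8, 8.71 and 9.34). In these 3, MAX and c-MYC were both higher after E2. The opposite order for c-MYC was seen at PEBP1 (13.5 under DMSO, 11.0 after E2), DDX31, an RNA helicase gene (13.2 and 9.92), and FBXW8, an F-box gene (13.1 and 12.6), while MAX was higher after E2 at all 3 (5.68 and 16.2, 7.82 and 17.8, 8.87 and 17.2). Others were RAPGEF3, a cAMP-activated exchange factor gene, CSE1L, a nuclear export receptor gene, PSMD9, a proteasome assembly gene, and PC, pyruvate carboxylase. Of the 16, 4 were in a short list.

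The 12 strongest shared regions by the lower fold enrichment were 7 with an H3K4me3 peak and 5 without. The G-run region in LINC00486 (chr2:33141303-33141660) led with 27.3 for MAX and 17.0 for c-MYC, followed by the pair in MIR663AHG (15.3 and 26.0, 15.3 and 17.5) and the region near RNU6-309P (15 and 22.4). None of these 4 had an H3K4me3 peak in T-47D, and Pol2 there was 19.1 or lower in every library. The region in the PMF1 locus (chr1:156186136-156186722, named for PMF1-BGLAP) was alike, with 12.9 for each protein and no H3K4me3 peak. These 5 overlapped short lists, and the T-47D H3K27me3 DMSO list had a peak at each, with fold enrichments from 8.91 to 26.4.

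The other 7 of the 12 had H3K4me3 under DMSO and a Pol2 peak. The region near HES1 (chr3:193852250-193853160) had 19.3 for MAX and 14.8 for c-MYC, with Pol2 at 62.0, 19.9, 26.7 and 29.2 and no TAF1 peak. PCBP1-AS1 had 15 and 14.0, with TAF1 at 6.04 under DMSO and 7.66 after E2. NDUFAB1, which encodes the mitochondrial acyl carrier protein, had 13.7 and 14.5, with TAF1 at 7.25 and 10.4. B3GNTL1 had 18.5 and 13.5, and Pol2 up to 106 in 1 DMSO library, without TAF1. PPRC1 had 15.9 and 13.3, TAF1 at 6.02 and 9.49, and the highest Ishikawa MAX of the 12 (17.0 under DMSO, 13.0 after E2). PABPC1, the poly(A)-binding protein gene, had 14.4 and 12.9, with TAF1 at 12.5 and 12. The region near NR2F2 had 13.9 and 13.5, H3K4me3 at 16.8 and 8.61, and a Pol2 peak in 1 library of each treatment.

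Away from start sites, 48 shared regions lay farther than 1000 bp from any. They had H3K4me3 in 72.9% and TAF1 after E2 in 27.1%, against 96.6% and 80.3% of the 447 nearer ones, and CACGTG in 14.6%. The 13 regions in short lists were not left out of these shares. Of those 13, 3 were within 250 bp of a start site, 1 had H3K4me3 under DMSO and 3 had TAF1 after E2. Besides the regions named above, the strongest were ENSG00000289599 on chromosome 17 (12.6 for MAX and 13.1 for c-MYC, with CACGTG) and an intron of UNC45B (13.7 and 12.1), which was in a short list and had no H3K4me3 peak.

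The strongest MAX-only regions were at EPOP (33.0), the clock gene PER1 (26.3), the phosphatase gene DUSP23 (24.4), ZNF318 (24.0) and FNIP1 (23.2), a regulator of lysosomal nutrient signalling. The first of them exceeded the highest shared region (27.7). These 5 peaks were 53388 to 572371 bp from the nearest c-MYC peak, edge to edge, 3 of the 5 held CACGTG, and 1, DUSP23, had a c-MYC peak under DMSO (8.29).

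Genes were linked to a region when its peak came within 250 bp of a protein-coding start site. Of 20090 protein-coding genes, 466 (2.32%) had a shared region and 888 (4.42%) a MAX-only region, and of the 12058 with H3K4me3 in T-47D the numbers were 464 (3.85%) and 859 (7.12%). MYC-only regions were at 911 genes (4.53%). Genes of each list below are read against these shares.

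Of 30 textbook MYC targets, 3 (10.0%) had a shared region and 7 (23.3%) a MAX-only region. The shared ones were TFRC (18.8 for MAX, 8.49 for c-MYC), LDHA, lactate dehydrogenase A (9.93 and 9.52, with CACGTG), and NME1, a nucleoside diphosphate kinase gene (8.44 and 6.25). The MAX-only ones were NCL, UBTF, CAD, NPM1, E2F1, CDK4 and GNL3, with MAX fold enrichments of 21.2 at NCL (nucleolin) to 8.33 at GNL3. MYC-only regions were at 3 more. Of 30 nucleolar and ribosome assembly genes, NOP14 (14.4 and 12.8) and MRTO4 (8.18 and 7.17) had a shared region, 6.67% of the list, and 6 genes a MAX-only region, among them WDR43 (18.4) and NOP56 (17.3).

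Translation and metabolism genes had a few shared regions each. Of 28 translation factor and tRNA synthetase genes, 4 (14.3%) had one: EEF1D, an elongation factor subunit (14.9 for MAX, 7.84 for c-MYC), PABPC1, EPRS1, glutamyl-prolyl-tRNA synthetase (13.5 and 7.58), and WARS1, tryptophanyl-tRNA synthetase (10.0 and 9.04). A further 5 had a MAX-only region. Of 33 genes of nucleotide, polyamine, one-carbon and sugar metabolism, 4 (12.1%) had a shared region: ATIC, of purine synthesis (16.1 and 10.0, with CACGTG and no TAF1 peak), PKM, pyruvate kinase (12.2 and 9.41, with TAF1 at 13.1 under DMSO and 23.1 after E2), MTHFD2, a mitochondrial folate enzyme (11.7 and 10.5, with TAF1 at 11.4 and 14.8), and NME2 (11.3 and 12.1). MAX-only regions were at 8, led by SHMT1 (18.9).

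Ribosomal protein genes had more MYC-only than MAX-only regions. Of 85, 4 (4.71%) had a shared region, 1 (1.18%, RPSA) a MAX-only region and 14 a MYC-only region. The 4 were RPL13 (18.1 for MAX, 9.58 for c-MYC), RPL8 (14.2 and 11.4), RPL35 (10.7 and 10.2) and RPS21 (8.76 and 6.65), and 0 of them held CACGTG at the summit. TAF1 was high at RPL13 (18.6 under DMSO, 24.9 after E2), RPL8 (19.0 and 22.8) and RPL35 (15.1 and 17.3), above the median of 7.72 at shared regions after E2, whereas at RPS21 it was 4.85 and 7.04.

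Genes of the MAX network and of the clock had MAX-only regions more often than shared regions, as all genes with H3K4me3 did (7.12% against 3.85%). Of 12 network genes, 0 had a shared region. MXD3 (17.5) and MXD4 (14.8), which encode MAX partners, and MLXIP (9.85), which encodes a partner of MLX, had MAX-only regions, the first pair with CACGTG. The MAX gene itself and MLX had MYC-only regions (8.85 and 8.96). Of 30 E-box factor, clock and lysosome genes, 1 (3.33%), the clock repressor gene CRY2 (13.0 for MAX, 6.79 for c-MYC), had a shared region and 8 (26.7%) a MAX-only region: PER1, PER2 (16.4), TEF (13.6), LAMP1 (12.7), HIF1A (12.7), CRY1 (12.6), DBP (10.5) and NR1D1 (9.36). Of these 8, TAF1 had a peak after E2 at HIF1A alone. MYC-only regions were at 3 genes of this list, among them the clock gene BMAL1 (10.6). Of 24 estrogen-induced genes, 0 had a shared region, 1 (FKBP4, 15.7) a MAX-only region and 2 (RERG and KRT19) a MYC-only region.

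The share of MAX peaks that met c-MYC differed by chromosome. It was 46.2% on chromosome 8 (42 of 91, exact 95% interval 35.6 to 56.9), 46% on chromosome 11 (46 of 100, 36 to 56.3), 43.4% on chromosome 3 and 43.3% on chromosome 9, against 17.6% on chromosome 19 (12 of 68, 9.47 to 28.8), 17.7% on chromosome 2 (11 of 62, 9.20 to 29.5) and 13.6% on chromosome 18 (3 of 22). Per 1000 genes with H3K4me3, shared regions ran from 4.93 on chromosome 13, where 1 of 12 MAX peaks was shared, to 100.2 on chromosome 8. All MAX peaks also differed there, at 59.1 and 217 per 1000 such genes. TAF1 after E2 was at 27.3% of the MAX peaks of chromosome 18, 32.4% on chromosome 19, 71.7% on chromosome 3 and 77.4% on chromosome 14. Within chromosomes these differences between shared and MAX-only regions kept their sign and were smaller than over all. The weighted mean was 22.2 points for TAF1 after E2 (24.4 over all). TAF1 was higher in shared regions on 15 and lower on 2 of the 17 chromosomes with at least 10 regions of each class. For Pol2 the mean was 6.58 points (7.52 over all), for H3K4me3 6.54 (8.01) and for c-MYC DMSO 17.3 (18.6). For CACGTG it was -3.30 points (-4.84 over all), lower in shared regions on 11 and higher on 6 of 17. These means carry no interval.

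**Figure D5:**
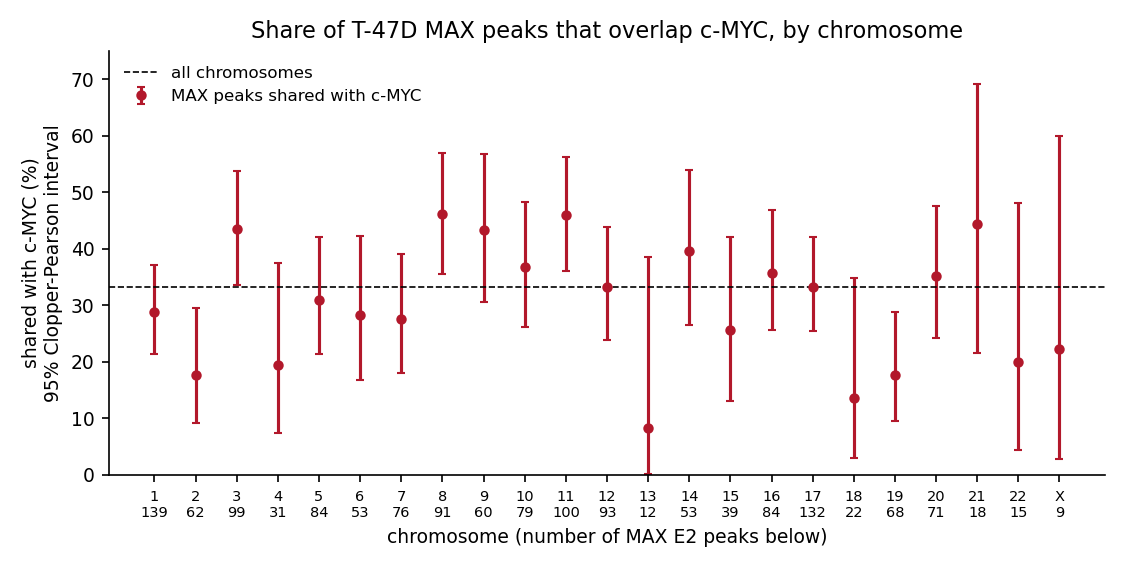
Share of T-47D MAX E2 peaks that overlap a c-MYC E2 peak, in percent by chromosome, with exact 95% intervals and the number of MAX peaks under each chromosome. The dashed line is the share over all chromosomes (33.2%), and the intervals of chromosomes 2 and 19 lie below it while those of chromosomes 3, 8 and 11 lie above.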

How the data were processed

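ChIP-seq peak lists from T-47D and Ishikawa cells were used. The authors aligned reads to hg19 and called peaks per library, and their processing notes name Bowtie 1.1.2 and MACS2 2.1.0.20140616. The deposited values are the fold enrichment at each summit, a ratio over local background, then the p-value as −log10, and the q-value as −log10, which was at least 7.22 in the MAX list. The lists state no depth, so precision cannot be tied to read numbers, and a list's length depends on its depth.

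Peaks on chromosomes 1 to 22 and X were kept, which left out 2 MAX and 11 c-MYC peaks. A region had a feature where peaks overlapped by at least 1 bp. Start sites came from GENCODE release 44 on GRCh37, the build of the files. Motifs were searched on both strands in 101 bp around summits. Shares carry Clopper-Pearson and differences Newcombe 95% intervals, over regions, which are not replicates. Pol2 was compared by an exact permutation test over 4 libraries. Scripts ran in Python 3.11.15 with SciPy 1.17.1 and pysam 0.24.0 and were tested on simulated data.

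Named regions were the 12 shared regions with the highest lower fold enrichment, the 6 strongest farther than 1000 bp from start sites, the 5 strongest MAX-only regions, the 3 shortest overlaps and gaps (1 gap is not reported here), and up to 4 genes of each list. The 16 regions with peaks of both proteins under DMSO, the MAX-only and MYC-only genes of the lists, the split by chromosome, the c-MYC summit windows and the contrasts within classes were added after values were seen. The regions and gene lists were chosen with earlier results of these data known. The alternatives were other overlap, fold, q-value, window and promoter limits, terciles of MAX fold enrichment, leaving out Pol2 libraries, a replicate block and, chosen after seeing the data, leaving out regions in 4 short lists and keeping the MAX-only regions as the comparison group under the summit and fold limits. The Ishikawa H3K36me3 list and the 4 input libraries were not used here.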

Additional observations from a re-analysis of the deposited data

Results flagged for a closer look

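For 4 targets, the change in the share of the 495 shared regions with a peak (E2 minus DMSO) had opposite signs in the cell lines. Each share rests on 1 list per treatment, and the differences between the lines were not tested. TAF1 changed by 13.3 points in T-47D and -1.62 points in Ishikawa, where 96.4% of the regions already had a peak under DMSO. H3K4me3 changed by -4.04 points in T-47D and 0.202 points in Ishikawa. H3K27me3 changed by -81.8 points in T-47D, whose E2 list held 99 peaks against 6301 under DMSO, and by 71.7 points in Ishikawa. The T-47D DMSO and Ishikawa E2 lists of this mark lay at most of the shared regions, against their label. H3K4me3 had a peak at 94.3% and 96.2% of the 495 in the same line and treatment. RARA, the retinoic acid receptor, changed by -1.21 points in T-47D and 11.1 points in Ishikawa. Shares over all MAX peaks moved in the same directions, apart from Ishikawa H3K4me3 (95.2% under either treatment). From DMSO to E2 in T-47D, TAF1 went from 47.9% to 58.9% and H3K4me3 from 89.0% to 83.1%. There H3K27me3 went from 62.9% to 0.604% and RARA from 4.70% to 4.16%. In Ishikawa, TAF1 went from 94.9% to 91.9%, H3K27me3 from 5.97% to 68.5% and RARA from 0.604% to 10.5%.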

How the results depend on the processing

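Over 16 results and 108 alternatives, 83 values stayed within the limits set for a change, 24 moved and 1 reversed. Stricter rules for a shared region were compared in 2 ways. Where all other MAX peaks formed the comparison group, it took in the shared regions that failed the stricter rule. With a c-MYC summit within 100 bp, 267 regions remained (the nearest summit of any c-MYC peak counts here), and the other 1223 MAX peaks included 228 that overlapped c-MYC. The differences were then 16.8 points for TAF1 E2, 4.62 for Pol2, 2.91 for H3K4me3 (-1.40 to 6.31) and -3.10 for CACGTG (-7.74 to 2.30), with H3K4me3 at 91.4% of shared regions. With a fold enrichment of at least 10 in both lists, 97 regions remained, and the other 849 MAX peaks included 230 that overlapped c-MYC. The differences were 14.8 points for TAF1 E2, 3.83 for Pol2 (-3.08 to 7.81), 2.50 for H3K4me3 (-5.19 to 7.41), -5.93 for start sites and -1.49 for CACGTG, and the shares of shared regions were 93.8% for Pol2, 90.7% for H3K4me3, 46.4% for Ishikawa MAX, 13.4% for MAX DMSO, 23.7% for CACGTG and 72.2% for start sites. Against MAX-only regions, a group chosen after seeing the data and used in the results above, the differences were 21.9 points for TAF1 E2 and 6.29 for Pol2 (2.54 to 9.19) by the summit rule, and 22.6 and 6.58 by the fold rule, which gave -4.73 for start sites. In the lowest tercile of MAX fold enrichment the differences were 19.3 points for TAF1 E2 and 4.56 for Pol2, and in the middle tercile 10.2 for Pol2. Without the 4 short lists, and with no stricter limit, H3K4me3 was at 96.7%. Under the summit and fold limits the regions in short lists were not left out. Wider windows gave 90.3% at start sites within 1000 bp and 23.6% with CACGTG within 100 bp, and a Pol2 peak in either E2 library was at 98.4%. Fewer regions follow from the stricter limits themselves; the cause of the other shifts was not tested.

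Leaving out 1 Pol2 library gave differences between E2 and DMSO from -1.62 to 9.09 points, the former without DMSO replicate 2. With the replicate block the difference was 3.74 points (exact permutation test within pairs, p = 1.00, the smallest p being 0.5). It was -0.808 points for number 1 and 8.28 points for number 2. Nothing in the labels says that these numbers mark a pairing. Each other target was 1 library per group, so its differences between treatments have no replicate check.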

Other observations

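Some Ishikawa lists also met the T-47D shared regions more often than the MAX-only regions. LSD1, a histone demethylase, was at 42.2% of shared and 29.2% of MAX-only regions under DMSO (difference 13.0 points, Newcombe 95% interval 7.81 to 18.2) and at 80.2% and 66.5% after E2 (13.7 points, 8.96 to 18.1). The largest difference among the Ishikawa lists was that of H3K27me3 E2, at 82.0% and 61.8% (20.2 points, 15.5 to 24.6). The Ishikawa H3K27me3 DMSO list was at 10.3% and 3.82%. Ishikawa H3K4me3 after E2 was at 96.2% of shared and 94.7% of MAX-only regions. The H3K27me3 E2 list thus met regions with the active promoter mark, against its label, as the T-47D H3K27me3 DMSO list did. Ishikawa c-JUN E2 was at 71.3% and 57.9% (13.4 points, 8.30 to 18.3), whereas Ishikawa SIN3A in stripped media was at 97.2% and 95.6% (1.59 points, -0.575 to 3.45).

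Other promoter motifs were counted in the same summit windows. The ETS-type motif CCGGAAG was in 9.49% of shared and 5.33% of MAX-only windows (4.17 points, 1.40 to 7.32), against 7.23% at protein-coding start sites. GGGCGG, the GC box, was in 48.1% and 51.4% (-3.28 points, -8.63 to 2.11), and CCAAT in 12.1% of each. The NRF1-type motif GCATGCGC was in 1.62% and 3.22% (-1.60 points, -3.11 to 0.199).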
